A study of Mus musculus with 4 samples.

Results

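Expression of 7 transcription factors of the helper T cell response was followed in stimulated mouse CD4+ T cells, namely the STAT genes Stat3, Stat4 and Stat6 and the interferon regulatory factor genes Irf1, Irf2, Irf4 and Irf8. They were taken by gene symbol, with earlier results of these data known, and all 7 were among the 16142 genes of the deposited table. RNA was sequenced from 2 WT and 2 R111A libraries. Zc3h12a encodes Regnase-1, an RNase that degrades mRNAs with stem-loops in their 3′UTR, and R111A changes the residue at which the paracaspase MALT1 cuts that protein. The comparison asks which transcripts differ when T cells carry a transgene for this form. R111A cells came from Cd4CreERT2LSL-R111Afl/fl mice, where a tamoxifen-activated Cre made under Cd4 control removes a stop cassette in front of the transgene, and the endogenous Zc3h12a gene is kept. Control cells came from WT B6 mice without that Cre or transgene. The transgene is driven by the CAG promoter, so the changed residue and a raised level of Zc3h12a RNA cannot be told apart here. Tamoxifen was given i.p. at 75 mg/kg for 5 days, and the sources used here can be read as treating both groups. The study used young adult mice of both sexes and does not say which of them gave these libraries. Splenic CD4+ T cells of both groups were purified with beads, sorted by FACS and stimulated for 12 h with anti-CD3 (5 µg/mL) plus anti-CD28 (1 µg/mL), so all 4 libraries are of stimulated cells.

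STAT proteins wait in the cytoplasm until a cytokine receptor, through its Janus kinases, phosphorylates them, and they then pair and bind DNA in the nucleus. In helper T cells STAT4 acts downstream of IL-12 and favours the Th1 fate, STAT6 acts downstream of IL-4 and favours Th2, and STAT3 acts downstream of IL-6, IL-10, IL-21 and IL-23 and takes part in Th17 and follicular helper programmes. IRF4 is induced by T cell receptor signalling and binds DNA together with BATF and JUN proteins, IRF8 is its closest relative, and IRF1 and IRF2 bind the same interferon-response elements, mostly as an activator and a repressor.

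RefSeq promoter sequences (250 bases before to 50 bases after a start site, GRCm38.p6) were at hand for all 7 genes, 10 promoters in all. They were searched on both strands for the STAT element GAS (TTCNNNGAA), the longer form that STAT6 prefers (TTCNNNNGAA), the core of the interferon-response element ISRE (GAAANNGAAA), the ETS-IRF composite element (GGAANNGAAA), AP-1 (TGANTCA) and NF-kB (GGGNNNNNCC). A match is a description of the letters and not a binding site. GAS letters were found in the first promoters of Irf1, Irf2 and Irf8, and in 8.30% of all 32851 promoters. ISRE letters were found in the Irf2 promoter and the second Stat4 promoter, against 3.44% of all promoters, and composite letters in the Irf2 promoter, against 2.72%. NF-kB letters were in 6 of the 10 promoters, with 6 places in the first Irf8 promoter, 4 in that of Irf1 and 2 in that of Irf4, but 50.8% of all promoters and 67.2% of those of tested genes hold them. STAT6-type and AP-1 letters, held by 6.95% and 7.81% of all promoters, were in none of the 10. Shown here are the promoters of the 3 IRF genes whose RNA differed and of Irf1, the abundant activator, 5′ to 3′ on the plus strand, with GAS, ISRE and composite letters in capitals. In Irf2 the composite and ISRE letters overlap, and 2 GAS places lie close together in Irf8. In Irf4 none of these letters occur.
Irf1, chr11:53769764-53770063: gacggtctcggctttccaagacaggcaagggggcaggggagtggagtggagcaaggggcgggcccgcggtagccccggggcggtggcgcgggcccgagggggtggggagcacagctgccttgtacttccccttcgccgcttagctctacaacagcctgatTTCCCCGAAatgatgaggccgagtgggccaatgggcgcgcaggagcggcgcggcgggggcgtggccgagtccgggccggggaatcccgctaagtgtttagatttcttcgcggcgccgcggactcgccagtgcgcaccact
Irf2, chr8:46739495-46739794: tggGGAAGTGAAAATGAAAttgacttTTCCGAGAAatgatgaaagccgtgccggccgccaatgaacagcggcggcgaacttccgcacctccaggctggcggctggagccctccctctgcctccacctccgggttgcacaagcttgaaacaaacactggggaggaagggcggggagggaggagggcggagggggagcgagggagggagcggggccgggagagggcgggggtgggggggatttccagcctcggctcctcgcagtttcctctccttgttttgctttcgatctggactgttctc
Irf4, chr13:30748983-30749282: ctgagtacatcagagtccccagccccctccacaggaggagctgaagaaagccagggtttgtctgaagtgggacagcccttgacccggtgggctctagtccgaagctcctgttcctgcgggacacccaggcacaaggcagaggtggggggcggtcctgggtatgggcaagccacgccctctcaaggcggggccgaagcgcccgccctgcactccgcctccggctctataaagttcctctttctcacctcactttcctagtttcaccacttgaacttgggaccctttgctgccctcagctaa
Irf8, chr8:120736108-120736407: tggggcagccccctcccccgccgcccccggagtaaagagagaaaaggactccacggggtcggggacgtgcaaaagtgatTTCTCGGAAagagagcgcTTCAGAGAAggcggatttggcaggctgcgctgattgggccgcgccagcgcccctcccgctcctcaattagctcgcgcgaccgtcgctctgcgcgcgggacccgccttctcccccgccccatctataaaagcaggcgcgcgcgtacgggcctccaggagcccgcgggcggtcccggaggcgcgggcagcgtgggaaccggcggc

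Values were deposited as FPKM, which are scaled for gene length and for the size of the library, so levels can be compared between genes but the reads behind a value are not known. Over all genes the FPKM added up to 801475 (WT replicate 1), 836143 (WT replicate 2), 1053551 (R111A replicate 1) and 1012215 (R111A replicate 2). The 100 highest genes held 47.6% and 48.7% of that sum in WT and 63.9% and 63.0% in R111A. Neither the labels nor the methods say whether replicates came from separate animals or cultures, so p-values measure the spread between these samples, which may be technical. The R111A replicates were farther apart (SD of the log2 gap over 9831 genes 0.31) than the WT replicates (0.17). Zc3h12a, the gene of the transgene, was at 16.97 and 15.72 FPKM in WT against 196.30 and 130.87 FPKM in R111A. Its log2 fold change was 3.22 (SE 0.19, adjusted p = 9.2e-06 from limma), so both R111A libraries carried the RNA that their label calls for. The values do not separate transgene from endogenous RNA.

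Limma was fitted to log2(FPKM + 1) over the 9831 genes whose mean was 1 FPKM or more, and all 7 factors passed that filter. The added 1 makes changes of low genes look smaller than they are. At an adjusted p under 0.05, 1 of the 7 was higher in R111A (Irf2) and 2 were lower (Irf4 and Irf8), while 21.2% of all genes tested were higher and 32.1% were lower. With a 2-fold change required as well, 0 were higher (Irf2 passed on the adjusted p alone) and 2 were lower, against 8.52% and 8.34% of all genes. With 7 genes a count moves by much with a single gene, so the genes are read one by one and the counts are no result about the group. The median log2 fold change was -0.27 for the 7 factors and -0.12 for all genes tested, and that of the 7 was -0.58 without R111A replicate 1, -0.12 without R111A replicate 2 and -0.04 with quantile normalization. Over all genes, 2088 were called higher and 3152 lower, and after rescaling each library to the same sum (TPM) the counts were 1335 and 5096. That rescaling moved the median of all genes from -0.12 to -0.42.

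**Figure D1:**
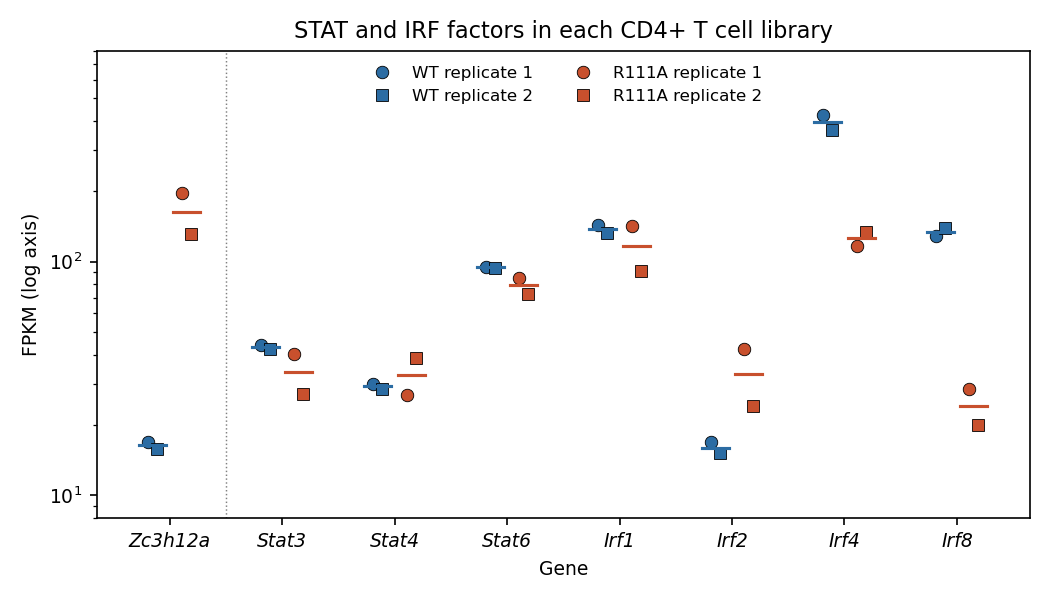
FPKM (log axis) of Zc3h12a and the 7 factors in each library, with blue points for WT, red points for R111A, circles for replicate 1, squares for replicate 2 and short lines for group means. Irf4 and Irf8 lie lower in both R111A libraries and Irf2 and Zc3h12a higher, while the groups overlap for Stat4 and Irf1.

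Stat6, the factor downstream of IL-4, was the most abundant of the 3 STAT genes, at 95.14 and 94.09 FPKM in WT against 85.39 and 72.76 FPKM in R111A. Both R111A values lay under both WT values, as for 46.3% of all genes tested. The log2 fold change of -0.26 (SE 0.13) did not pass limma's test (adjusted p = 0.132). Stat3 was at 43.76 and 42.18 FPKM in WT against 40.26 and 27.25 FPKM in R111A. R111A replicate 1 lay close to WT and replicate 2 well under it, and the log2 fold change was -0.36 (SE 0.18, adjusted p = 0.125 from limma). Stat4, the IL-12 factor, was at 30.06 and 28.56 FPKM in WT against 26.87 and 38.68 FPKM in R111A. The R111A values stood on both sides of the WT values, with a log2 fold change of 0.13 (SE 0.18, adjusted p = 0.550 from limma). The 95% intervals ran from -0.57 to 0.05 for Stat6, from -0.78 to 0.05 for Stat3 and from -0.27 to 0.54 for Stat4, so a fall or rise of 2-fold lay outside each of them.

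The 3 STAT results hinge on which R111A library is read. Without R111A replicate 1 the log2 fold change was -0.64 for Stat3, -0.37 for Stat6 and 0.39 for Stat4, and without R111A replicate 2 the Stat4 value changed sign to -0.12. With a lone R111A library the spread comes from the WT replicates, which lay closer together. A smaller adjusted p there marks no firmer result. Rescaling to TPM brought Stat3 to -0.69 (adjusted p = 0.00364) and Stat6 to -0.59 (adjusted p = 0.00248), and turned Stat4 to -0.19 (adjusted p = 0.379). Relative to the median of all genes, the TPM values were -0.27 for Stat3, -0.17 for Stat6 and 0.23 for Stat4, close to -0.25, -0.15 and 0.25 before rescaling. Over the 14 alternatives the adjusted p ranged from 0.00206 to 0.393 for Stat3, from 0.00248 to 0.956 for Stat6 and from 0.0127 to 0.819 for Stat4. The order Stat6 over Stat3 over Stat4 held in both WT libraries and in R111A replicate 1. In R111A replicate 2 Stat4 stood above Stat3, and the Stat3 to Stat4 ratio was 0.704 there against 1.46 and 1.48 in WT and 1.5 in R111A replicate 1.

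Irf4 had the highest level of the 7 in all libraries but R111A replicate 1, where Irf1 stood above it, at 426.09 and 367.72 FPKM in WT (mean 397 ± 41.3, SD, n = 2) and at 117.23 and 134.59 FPKM in R111A (126 ± 12.3, SD, n = 2). Both R111A libraries lay far under both WT libraries. The log2 fold change was -1.65 (SE 0.14, adjusted p = 3.8e-05 from limma), a WT level 3.15 times that of R111A. Irf8, its closest relative, was at 129.04 and 139.11 FPKM in WT (134 ± 7.12, SD, n = 2) and at 28.53 and 19.89 FPKM in R111A (24.2 ± 6.11, SD, n = 2). The groups were again apart, with a log2 fold change of -2.44 (SE 0.18, adjusted p = 1.9e-05 from limma) and a WT level 5.54 times that of R111A. By log2 fold change Irf8 was the 31st and Irf4 the 164th lowest of the 9831 genes. Both were called under each of the 14 alternatives, with log2 fold changes from -1.98 to -1.45 for Irf4 and from -2.77 to -2.19 for Irf8 and adjusted p of at most 0.00326 and 0.00334. These are bulk samples, so fewer cells that express a gene and less of its RNA per cell cannot be told apart.

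Irf2, known mainly as a repressor at interferon-response elements, was at 16.83 and 15.09 FPKM in WT against 42.20 and 24.12 FPKM in R111A. Both R111A libraries were higher, replicate 1 by more, and the log2 fold change of 0.96 (SE 0.23, adjusted p = 0.00833 from limma) stood just under 2-fold on this scale. It was 1.35 without R111A replicate 2 and 0.57 without R111A replicate 1, and it lost its call with no filter on low genes (adjusted p = 0.0623, the highest of the 14 alternatives, against 5.5e-08 at the lowest). Irf1, the activator at the same elements, was at 142.88 and 132.14 FPKM in WT against 141.67 and 91.63 FPKM in R111A. R111A replicate 1 lay within the WT range and replicate 2 under it, so the groups overlapped, and the log2 fold change was -0.27 (SE 0.20, adjusted p = 0.275 from limma). Without R111A replicate 1 the Irf1 value was -0.58, and without R111A replicate 2 it was 0.04. With quantile normalization it was -0.04 (adjusted p = 0.881, the highest of the alternatives). Rescaled to TPM it was -0.60 (adjusted p = 0.00952).

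**Figure D2:**
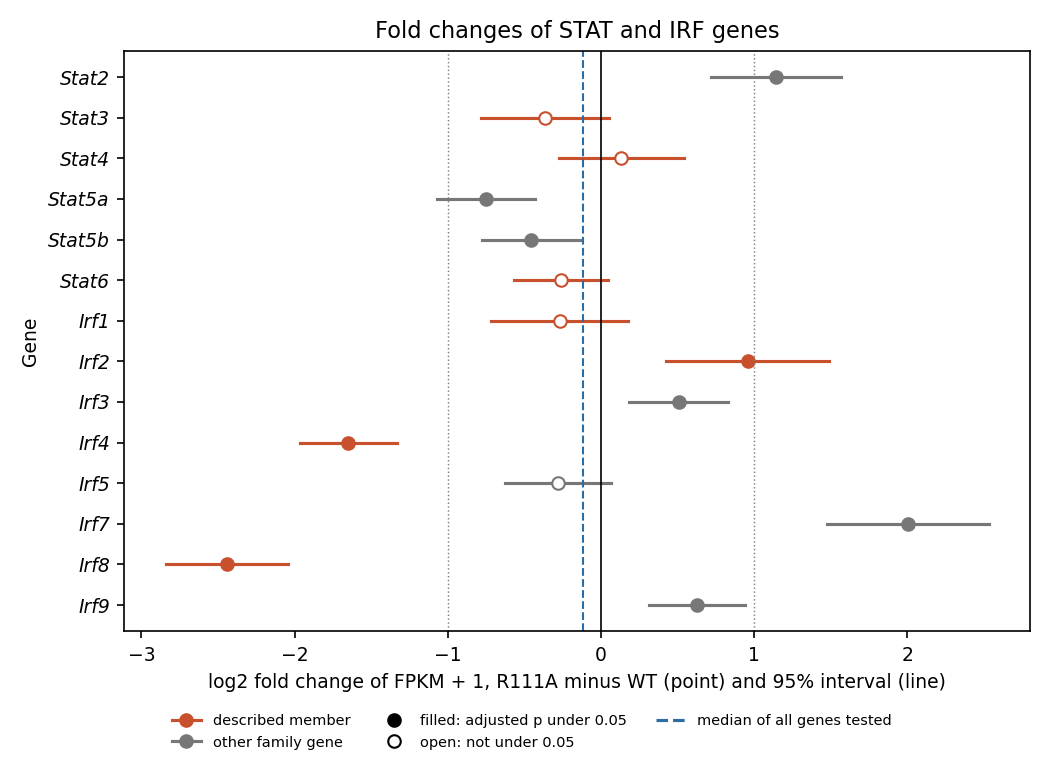
Log2 fold changes (R111A minus WT, FPKM + 1) of STAT and IRF genes with 95% intervals from limma, red for the 7 factors and grey for other family genes, filled where the adjusted p was under 0.05. Dotted lines mark a 2-fold change and the dashed line the median of all genes, -0.12, and Irf4 and Irf8 stand left of the 2-fold line.

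Ratios within a library do not depend on how that library is scaled. The Irf4 to Irf8 ratio was 3.30 and 2.64 in WT and 4.11 and 6.77 in R111A, so Irf8 fell further than Irf4 in both R111A libraries. The Irf1 to Irf2 ratio was 8.49 and 8.76 in WT and 3.36 and 3.80 in R111A, with no overlap. Its R111A values were close together although both genes differed between the R111A libraries, Irf1 by 0.62 and Irf2 by 0.78 on the log2 scale. The Stat3 to Stat6 ratio (0.460 and 0.448 in WT, 0.471 and 0.375 in R111A) and the Stat4 to Stat6 ratio (0.316 and 0.304 in WT, 0.315 and 0.532 in R111A) overlapped between groups. These ratios are given as values with no test.

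Other genes of the 2 families moved in both directions. Irf7, the interferon-induced amplifier of the interferon response, rose from 2.97 and 1.84 FPKM in WT to 15.55 and 9.95 FPKM in R111A (log2 fold change 2.0, SE 0.23, adjusted p = 0.000189 from limma). Stat2 and Irf9, parts of the complex that binds the ISRE after type I interferon, rose by log2 fold changes of 1.15 (SE 0.19, adjusted p = 0.00113) and 0.63 (SE 0.14, adjusted p = 0.00495). Irf3, the factor driven by nucleic acid sensors, rose by 0.51 (SE 0.14, adjusted p = 0.0157). Stat5a and Stat5b, the IL-2 factors, fell, with log2 fold changes of -0.75 (SE 0.14, adjusted p = 0.00224) and -0.45 (SE 0.14, adjusted p = 0.0242). Irf5 was under 3 FPKM throughout (-0.28, adjusted p = 0.15). It passed with quantile normalization and after rescaling to TPM (0.0163, with 0.704 at the highest). The calls of Irf3, Irf9 and Stat5b were lost without either WT library, though their fold changes stayed close. Without WT replicate 1 the adjusted p was 0.225 for Irf3, 0.0813 for Irf9 and 0.194 for Stat5b, and without WT replicate 2 it was 0.0771, 0.0563 and 0.217. The log2 fold changes were 0.43 and 0.59 for Irf3, 0.61 and 0.65 for Irf9 and -0.46 and -0.44 for Stat5b. Irf3 and Irf9 also lost their calls after rescaling to TPM (adjusted p = 0.290 and 0.0841), and Stat5b with median-of-ratios factors and quantile normalization. Over the alternatives the adjusted p ran from 0.003 to 0.290 for Irf3, from 0.000405 to 0.0841 for Irf9 and from 0.000516 to 0.217 for Stat5b.

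Since Regnase-1 acts on stem-loops, the 3′UTRs of the 7 genes were folded in windows of 100 nt, and a stem-loop was counted where a stem of more than 2 base pairs with at least 1 GC pair closed a loop of 3 to 6 nt holding pyrimidine-purine-pyrimidine. Such stem-loops are common, and 79.3% of the 9615 genes with a usable 3′UTR held at least 1, at 2.70 per kb overall. Genes lower in R111A had 2.74 per kb and genes higher in R111A 2.62 per kb. Irf4 held 15 in a 3′UTR of 3309 nt (4.53 per kb), and 3.90% of the 975 genes with a 3′UTR of like length held as many or more. Irf8, which fell further, held 2 in 1519 nt (1.32 per kb), fewer than the median of 4 for the 1485 genes of like length. Irf2, which rose, held 1 in 1236 nt, where the median was 3. Stat3 held 8 in 1895 nt (4.22 per kb, median 5 at like length), Stat6 2 in 976 nt, Irf1 1 in 877 nt and Stat4 0 in 248 nt. Binding of Regnase-1 to these RNAs was not analysed here. Shown are the 5 Irf4 stem-loops with stems of 6 or more base pairs, both of Irf8 and the 1 of Irf2, with the loop in capitals and positions in GRCm38.
Irf4, chr13:30765394-30765413: ucgggaagCACUcuuccuga
Irf4, chr13:30765722-30765737: gaggaaCACCuuccuc
Irf4, chr13:30766123-30766137: gugaggUGCccuugc
Irf4, chr13:30766486-30766508: gcuucuucaCUCAUugaagaagc
Irf4, chr13:30766596-30766613: uuuucagUGCUuugagga
Irf8, chr8:120755606-120755616: acaaUAUuugu
Irf8, chr8:120756051-120756062: gggaCACUuccc
Irf2, chr8:46847307-46847320: cuguuCAUCagcag

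Upstream of the STAT factors, 11 cytokines that signal through STAT3, STAT4 or STAT6 were listed and 5 passed the filter. Il10 and Il13 passed it only through their WT level, so no count over these 5 is given. Il4, the ligand of the STAT6 pathway, was at 10.22 and 15.47 FPKM in WT against 1.42 and 0.70 FPKM in R111A (log2 fold change -2.74, SE 0.23, adjusted p = 3.7e-05 from limma). Its size depends on the pseudocount and ranged from -3.52 to -1.54 over the alternatives. Lif and Osm, both named after their values were seen, fell with log2 fold changes of -1.52 (from -1.87 to -0.86) and -0.77 (from -1.06 to -0.44). Il13 measured 6.01 and 5.98 FPKM in WT and at most 0.15 FPKM in R111A, and Il10 measured 3.51 and 4.76 FPKM in WT and at most 0.29 FPKM in R111A, both also named after their values were seen. The 6 others, Il6, Il12a, Il12b, Il21, Il23a and Il27, were under 1 FPKM in each library. Il4 fell while Stat6 itself did not pass the test.

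Of 17 receptor chains 14 were tested, 3 called higher and 5 lower, near the 21.2% and 32.1% of all genes, with a median log2 fold change of -0.02 (-0.28 after rescaling to TPM, where that of all genes was -0.42). Il12rb1, a chain of the IL-12 and IL-23 receptors, fell from 43.88 and 41.30 FPKM in WT to 7.72 and 5.97 FPKM in R111A (log2 fold change -2.48, SE 0.15, adjusted p = 1.1e-05 from limma). Its partner Il12rb2 was low in every library, from 1.14 to 1.58 FPKM, and was named after its values were seen. Ifngr1, the ligand-binding chain for interferon gamma, rose from 19.06 and 19.15 FPKM to 71.81 and 57.24 FPKM (log2 fold change 1.70, SE 0.15, adjusted p = 4.6e-05). Ifngr2, its partner chain, named after its values were seen, fell from 16.95 and 17.50 FPKM to 11.36 and 7.07 FPKM (-0.87, SE 0.20, adjusted p = 0.00664). Il21r, which feeds STAT3, rose by a log2 fold change of 0.95 (SE 0.13, adjusted p = 0.000531). Il10ra and Il10rb, the IL-10 chains that feed STAT3, did not pass limma's test (0.19 and 0.09, adjusted p = 0.316 and 0.593). They turned to -0.07 and -0.23 after rescaling to TPM and were named after their values were seen. Other chains that feed STAT3, named after their values were seen, fell: Il6ra (-0.89, SE 0.24, adjusted p = 0.0128, -0.49 without R111A replicate 2, adjusted p 0.0790 with no filter), Il6st (-0.69, SE 0.13, adjusted p = 0.00257, and 0.0547 without WT replicate 1) and Il27ra (-0.74, SE 0.13, adjusted p = 0.00155). Il2rg, the common gamma chain and the highest of the list, stood at 0.40 (SE 0.15, adjusted p = 0.0462), a call lost without WT replicate 1, WT replicate 2 or R111A replicate 1 (adjusted p = 0.0975, 0.332 and 0.0982) and after rescaling to TPM (adjusted p = 0.712, the highest of the alternatives, against 0.00682 at the lowest), and also with no filter and with eBayes without trend or robust.

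Of the 4 Janus kinases, 2 were called lower, beside 32.1% of all genes, and leaving out 1 of the WT libraries, in turn, left 1 call each time. Jak3, which pairs with the common gamma chain, fell from 25.52 and 25.74 FPKM to 14.41 and 12.67 FPKM (log2 fold change -0.88, SE 0.14, adjusted p = 0.000943). Tyk2, which serves the IL-12 and type I interferon receptors, had a log2 fold change of -0.52 (SE 0.13, adjusted p = 0.0111), with an adjusted p of 0.144 without WT replicate 1 and 0.169 without WT replicate 2 (from 0.000388 to 0.169 over the alternatives). Jak1 was at 81.36 and 75.70 FPKM in WT against 112.85 and 90.99 FPKM in R111A (0.36, adjusted p = 0.0618), and Jak2 at 65.80 and 70.19 FPKM against 66.40 and 80.73 FPKM (0.11, adjusted p = 0.552). Jak1 passed the test with median-of-ratios factors, quantile normalization and the replicate block, and stood at 0.52 without R111A replicate 2. Its adjusted p was 0.854 at the highest of the alternatives. The Jak2 value turned to -0.22 after rescaling to TPM and to -0.03 without R111A replicate 2.

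Among 16 brakes on the pathway, all tested, 8 were called lower and 1 higher (median log2 fold change -0.40), where 32.1% of all genes were lower and 21.2% higher. The lower calls include Socs2, which passed the filter only through its WT level. It was at 5.94 and 5.79 FPKM in WT against 0.46 and 0.59 FPKM in R111A, and was named after its values were seen. After rescaling to TPM 10 of the 16 were lower and 0 higher (median -0.67). In that setting 5096 of all 9831 genes were lower and 1335 higher. The counts of the brakes also moved when 1 library was left out, with medians from -0.42 to -0.34. With a pseudocount of 5 FPKM their median was -0.23. Cish, a SOCS-family gene induced by STAT5, fell from 75.54 and 70.15 FPKM to 9.10 and 8.07 FPKM (log2 fold change -2.95, SE 0.14, adjusted p = 3.6e-06 from limma). The phosphatases Ptpn11 (SHP-2) and Ptpn6 (SHP-1, the highest of the list) fell by log2 fold changes of -1.61 (SE 0.13, adjusted p = 3.3e-05) and -1.39 (SE 0.12, adjusted p = 4.9e-05).

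Genes known as targets of these factors went both ways. Bcl6, a STAT3 target and the follicular helper regulator, rose from 7.20 and 5.95 FPKM to 37.28 and 30.46 FPKM (log2 fold change 2.20, SE 0.16, adjusted p = 2.0e-05 from limma). On the same list Batf fell and Junb rose, as given below, and Bcl6 was listed as an IRF4 target too. Of 7 STAT4 targets, 2 were higher and 3 lower (median -0.11, and -0.31 after rescaling to TPM), beside 21.2% and 32.1% of all genes. Tbx21, the Th1 regulator, fell from 30.32 and 29.08 FPKM to 5.44 and 3.16 FPKM (log2 fold change -2.57, SE 0.20, adjusted p = 3.0e-05). Ifng, the Th1 cytokine, fell with a log2 fold change of -1.10 (SE 0.14, adjusted p = 0.000272), and Gadd45g, a stress-induced gene, rose with 0.86 (SE 0.19, adjusted p = 0.00504). Furin, the highest of that list, was at -0.53 (adjusted p = 0.0431), and its call was lost without WT replicate 1 (adjusted p = 0.187), WT replicate 2 (0.102) or R111A replicate 2 (0.0611), with no filter, under quantile normalization and under median-of-ratios factors, with 0.00123 at the lowest. Il18r1, named after its values were seen, rose from 1.49 and 1.65 FPKM to 4.58 and 5.86 FPKM (1.27, SE 0.16, adjusted p = 0.00026 from limma). So the Stat4 level, which overlapped between groups, stood beside lower Tbx21 and Ifng and higher Gadd45g and Il18r1.

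Among STAT6 targets Il4 fell as given above, while Gfi1, a repressor that supports Th2 growth, rose from 32.67 and 34.15 FPKM to 66.01 and 61.02 FPKM (log2 fold change 0.91, SE 0.13, adjusted p = 0.000565 from limma). Of 15 IRF1 targets, 4 were higher and 4 lower, with a median of -0.05, where 21.2% of all genes were higher and 32.1% lower. After rescaling to TPM these were 2 and 8 (median -0.38), where 1335 of all 9831 genes were higher and 5096 lower. The counts for the 15 targets also moved when 1 library was left out, with medians from -0.15 to 0.02. B2m, the light chain of MHC class I, rose from 1559 and 1518 FPKM to 3652 and 4317 FPKM (log2 fold change 1.37, SE 0.13, adjusted p = 7.5e-05), and Gbp3, an interferon-inducible GTPase, by 1.09 (SE 0.15, adjusted p = 0.00051), while Il12rb1 is on that list too and fell.

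Of 8 DNA-binding partners of IRF4 and IRF8 listed, 4 were tested, 2 called higher and 2 lower (21.2% and 32.1% over all genes), and the median of 0.21 turned to -0.12 after rescaling to TPM. Batf, which binds DNA with IRF4, fell from 65.09 and 58.70 FPKM to 22.12 and 21.78 FPKM (log2 fold change -1.45, SE 0.13, adjusted p = 5.3e-05 from limma). Its dimer partners Jun and Junb rose by log2 fold changes of 1.15 (SE 0.18, adjusted p = 0.000901) and 1.07 (SE 0.19, adjusted p = 0.00159). Jund, another such partner, named after its values were seen, fell from 94.42 and 97.01 FPKM to 74.77 and 49.61 FPKM (-0.64, SE 0.19, adjusted p = 0.0191), a call lost with no filter, with quantile normalization and without WT replicate 2 (adjusted p = 0.057, with 0.128 at the highest of the alternatives and 0.000173 at the lowest). Junb reached 294.05 and 197.33 FPKM in R111A, against 110.06 and 118.60 FPKM in WT. Spi1 and Spib, the ETS partners of IRF4 and IRF8 in B and myeloid cells, were under 0.5 FPKM in each library and were named after their values were seen.

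Of 9 factors that the T cell receptor drives upstream of IRF4, 1 was called higher and 2 lower (median -0.05), where 21.2% and 32.1% of all genes were. These counts were 0 and 5 after rescaling to TPM (median -0.38), where 1335 of all 9831 genes were higher and 5096 lower. The counts for the 9 factors also moved when 1 library was left out, with medians from -0.12 to 0.19. Nfkb1, the highest, was at 234.59 and 225.03 FPKM in WT against 344.45 and 261.48 FPKM in R111A (log2 fold change 0.38, SE 0.15, adjusted p = 0.0631 from limma). Relb was higher (0.48, adjusted p = 0.0357), and Nfatc2 (-0.63, adjusted p = 0.0145) and Nfatc3 (-0.50, adjusted p = 0.0185) were lower. Without WT replicate 1 these 3 calls were lost (adjusted p = 0.206, 0.130 and 0.337, log2 fold changes 0.44, -0.53 and -0.37), and without WT replicate 2 those of Relb and Nfatc3 (0.128 and 0.073, log2 fold changes 0.52 and -0.63). At the lowest the adjusted p was 0.00114 for Relb, 0.000635 for Nfatc2 and 0.000694 for Nfatc3. Relb also lost its call after rescaling to TPM (0.417, the highest of its alternatives) and with no filter, Nfatc2 with no filter and Nfatc3 with quantile normalization. Nfkb1 passed the test with median-of-ratios factors, quantile normalization and the replicate block, and stood at 0.58 without R111A replicate 2. Its adjusted p was 0.778 at the highest of the alternatives. The fall of Irf4 thus came with no called change of 2-fold in this list.

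**Figure D3:**
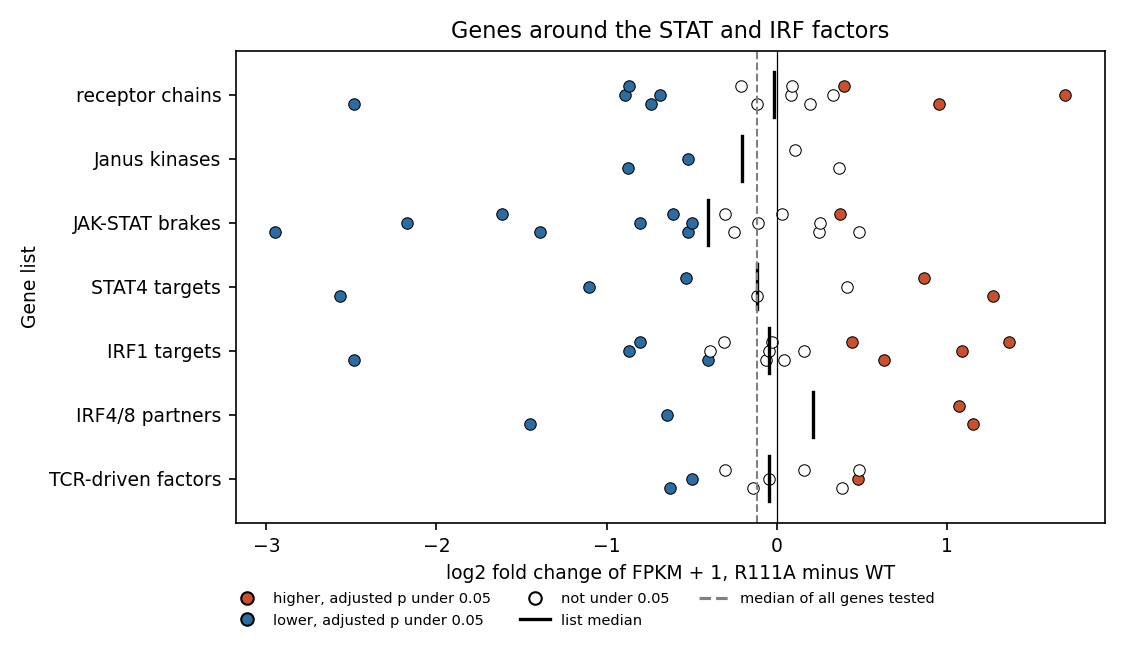
Log2 fold changes (R111A minus WT, FPKM + 1) of the tested genes of 7 lists around the factors, 1 point a gene, red for called higher, blue for called lower and open for neither, with the list median as a bar and the median of all genes as a dashed line. Each list holds genes on both sides of 0.

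The cells were checked against cell type markers. All 9 CD4+ T cell markers were present, and their summed level was 2115 and 2107 FPKM in WT and 1765 and 1625 FPKM in R111A. Of the 9, 5 were called lower, 1 higher and 3 neither, beside 32.1% and 21.2% of all genes. Cd3g, the highest, fell by a log2 fold change of -0.61 (adjusted p = 0.0032), Thy1 by -1.90 (adjusted p = 1.3e-05) and Cd4 from 157.54 and 131.28 FPKM to 70.69 and 51.35 FPKM (-1.24, adjusted p = 0.000568 from limma). Cd5 (-0.40, adjusted p = 0.0491) and Lck (-0.36, adjusted p = 0.0451) lost their calls without WT replicate 1 (0.264 and 0.180), WT replicate 2 (0.155 and 0.360) or R111A replicate 2 (0.0843 and 0.0564), with 0.000640 and 0.000479 at the lowest and 0.348 and 0.395 at the highest. Cd3d was the one called higher (0.37, adjusted p = 0.0294), a call lost without WT replicate 1 (0.294) or WT replicate 2 (0.206) and after rescaling to TPM (0.810, the highest of the alternatives, against 0.00385 at the lowest). Cd8a was at most 0.20 FPKM, and Cd8b1 was at -0.62 (adjusted p = 0.00662, and 0.103 without WT replicate 1, the highest of the alternatives). Irf4 and Irf8 are also expressed in cells of the B lineage, and Irf8 in dendritic cells, whose markers were read beside them. The B cell genes Ms4a1 and Pax5 were at most 0.23 FPKM in each library, and Cd79a was at 0.32 and 0.24 FPKM against 2.99 and 2.37 FPKM. The 6 dendritic cell markers summed to 1.76 and 1.53 FPKM in WT and to 2.33 and 2.47 FPKM in R111A, most of it Zbtb46, with Xcr1 and Clec9a at most 0.02 FPKM. Siglech was at 0.20 and 0.26 FPKM in WT against 0 in both R111A libraries, and Flt3 at 0.20 and 0.29 FPKM against 0.12 and 0.20 FPKM. Cd79b was at 1.15 and 0.24 FPKM in WT against 1.51 and 1.71 FPKM in R111A, and Fcer2a at 0.72 and 1.08 FPKM against 0.03 and 0 FPKM. The B cell markers thus went both ways, with Cd79a and Cd79b higher and Fcer2a lower in both R111A libraries. The part of these cells in the Irf4 and Irf8 values was not tested.

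Other marker lists were read as well, and their part in the results was not tested. Plasma cell markers summed to 0.74 and 0.57 FPKM in WT and to 8.76 and 12.86 FPKM in R111A, where Jchain was at 0.12 and 0.03 FPKM against 6.86 and 10.92 FPKM, with Tnfrsf17 at 0. Myeloid markers summed to 5.80 and 2.88 FPKM against 19.58 and 14.82 FPKM, led by Cd68 with S100a9 at 0. Erythroid markers summed to 0.66 and 0.70 FPKM against 12.93 and 12.97 FPKM, led by Hba-a1 with Hbb-bs at 0. NK cell markers summed to 21.21 and 24.05 FPKM against 23.65 and 22.31 FPKM and overlapped between groups. Nkg7, the highest of them in WT, fell (-2.06). Klrd1 (3.05), Eomes (1.80), Ncr1 and Klrb1c were higher in both R111A libraries and at most 1.00 FPKM in WT. CD8+ T cell markers summed to 7.31 and 6.76 FPKM against 3.88 and 4.46 FPKM.

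Regulatory T cells, a subset of CD4+ cells that expresses Irf4, were read from 6 markers that summed to 169 and 162 FPKM in WT and to 143 and 142 FPKM in R111A, most of it Il2ra (-0.11, adjusted p = 0.467). Foxp3, their defining gene, fell from 11.31 and 8.78 FPKM to 2.86 and 1.86 FPKM (log2 fold change -1.72, SE 0.19, adjusted p = 0.000149 from limma), and whether fewer such cells account for part of the Irf4 value was not tested. Lrrc32 was also called lower (-1.41, adjusted p = 0.000437) and Ikzf4 higher (0.53, adjusted p = 0.0275), the latter lost without WT replicate 1 (0.0955) or WT replicate 2 (0.164) and after rescaling to TPM (0.202, the highest of the alternatives, against 0.00234 at the lowest). The study sorted reporter-positive cells into CD25-positive and CD25-negative fractions in general, and the labels say neither which fraction these libraries hold, which bears on the Foxp3 level, nor whether the R111A cells were gated on the reporter. Cells without the transgene, if present in the R111A libraries, would make differences look smaller. Of genes typical of naive T cells, Il7r (3.01), S1pr1 (2.51) and Ccr7 (0.61) rose. Ccr7 lost its call after rescaling to TPM (adjusted p = 0.0814, against 0.00443 as reported and 0.000663 at the lowest). Of genes induced by activation, Nr4a1 rose from 145.72 and 143.84 FPKM to 982.95 and 616.23 FPKM (2.42) and Egr2 by 1.56, while Tnfrsf4 fell with -1.56.

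Genes whose pattern over the 4 libraries was nearest to that of Irf4 and Irf8 were found among the 7647 others whose mean was 5 FPKM or more, by the Euclidean distance of log2(FPKM + 1) centred on each gene's mean. Nearest to Irf4 were Scrn2 (distance 0.055), Frmd6 (0.076) and Dctd (0.078), and nearest to Irf8 were Mcrip2 (0.099), Mettl26 (0.10) and Lig1 (0.19). Scrn2, for example, was at 14.86 and 13.33 FPKM in WT against 3.41 and 4.04 FPKM in R111A, with replicate 2 the higher in R111A as for Irf4. Mcrip2 was at 34.56 and 37.17 FPKM in WT against 6.42 and 4.46 FPKM in R111A, with replicate 1 the higher in R111A as for Irf8.

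**Figure D4:**
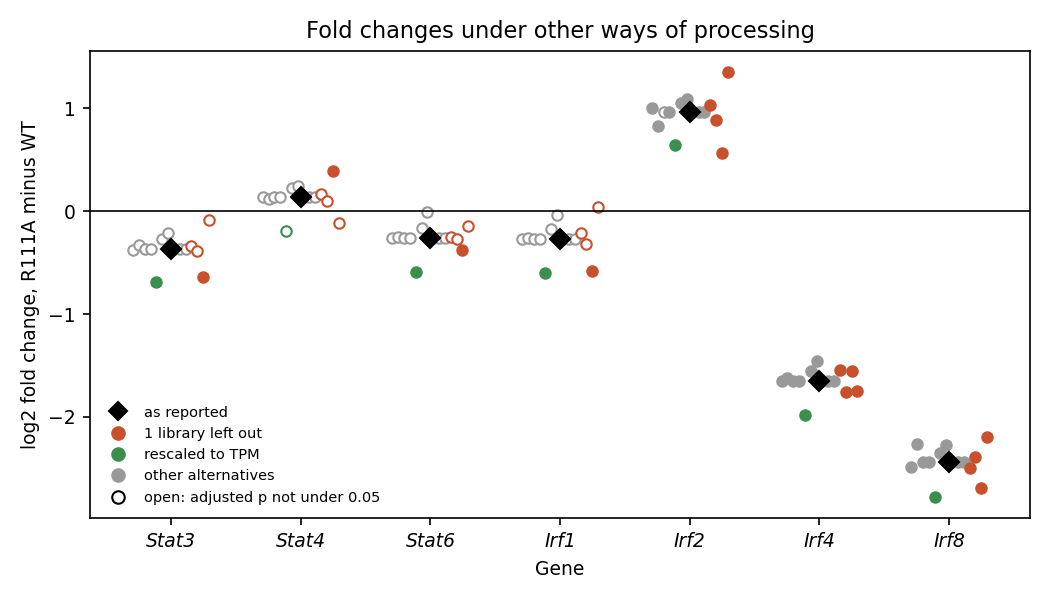
Log2 fold change (R111A minus WT) of each factor as reported (diamond) and under 14 alternatives (points), red for 1 library left out, green for TPM and grey for the others, filled where the adjusted p was under 0.05. Irf4 and Irf8 stay below -1 with every point filled, while Stat4 and Irf1 have points on both sides of 0.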

How the data were processed

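RNA was sequenced from 2 WT and 2 R111A libraries of stimulated CD4+ T cells. The authors aligned reads to mm10 and, per the submitters' processing notes, used Bowtie2 (version 2.4.4) and RSEM (version 1.2.28). They deposited FPKM values for 16142 genes. These are not counts, and the depth of a library is not known. Steps among low values put WT replicate 1 at 1.00, 1.05 and 1.18 times the depth of WT replicate 2, R111A replicate 1 and R111A replicate 2. The WT replicates held the same value for 0.661% of genes tested and so were not copies.

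Groups came from the labels. The log2(FPKM + 1) of 9831 genes whose mean was 1 FPKM or more went into limma (version 3.58.1, R 4.3.3; lmFit, eBayes with a trend, Benjamini-Hochberg adjustment). The fit was tried on simulated data with the same spread in both groups. In these libraries the spread differed between groups, so that trial does not cover them. The study called genes on counts, a step not used here, and its thresholds (2-fold, adjusted p under 0.05) were read from limma. The 7 factors and all lists were chosen with earlier results of these data known. Genes were named by rule: the factors and Zc3h12a, other STAT, IRF and Janus kinase genes, and of each list the gene with the highest mean and up to 3 with the largest called change, a mean of 5 FPKM or more and groups that do not overlap. Cell type markers outside this rule were named after their values were seen, and other such genes are marked in the text. Il24 was in the STAT6 target list and not analysed here, and some listed genes, with the counts and sums of lists that hold them, are not reported here.

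Promoters came from RefSeq (GRCm38.p6). 3′UTRs came from the GENCODE transcript with the longest coding sequence (GRCm38, the assembly of mm10), matched for 9740 of the 9831 genes (of like length where they differ by a factor of at most 5/4), and were folded with RNAfold (version 2.7.2) in python 3.11.15 with pandas 2.3.3 and numpy 2.4.6. The alternatives were pseudocounts of 0.1 and 5 FPKM, no filter, a filter at 5 FPKM, TPM, median-of-ratios factors, quantile normalization, a replicate block, eBayes without trend or robust, and each library left out.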

Additional observations from a re-analysis of the deposited data

How the results depend on the processing

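Irf4 and Irf8 kept their direction and call under all 14 alternatives and Irf2 under 13, losing its call with no filter (log2 fold change 0.96, adjusted p = 0.0623), where 0 factors were called higher. A pseudocount of 5 FPKM left 386 genes higher and 402 lower past 2-fold, and a filter at 5 FPKM left 521 higher. Rescaling to TPM gave 1335 genes higher, 5096 lower and 1749 lower past 2-fold, 5 factors lower, a median of -0.60 for the factors, and log2 fold changes of -0.69 for Stat3, -0.19 for Stat4, -0.59 for Stat6 and -0.60 for Irf1. Median-of-ratios factors and quantile normalization each put 1 factor higher past 2-fold. The cause of these shifts was not tested.

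With 1 library left out, log2 fold changes were between -0.64 and -0.092 for Stat3, -0.12 and 0.39 for Stat4, -0.37 and -0.15 for Stat6, and -0.58 and 0.044 for Irf1. The factors called higher ranged from 1 to 2, those called lower from 2 to 5 and those higher past 2-fold from 0 to 1, while genes called lower ranged from 1903 to 3883. The lone library of a group is then assumed to vary like the other group. Same-numbered libraries share only a number (correlation of their deviations 0.11), and with the replicate block Stat3 stayed at -0.36 with an adjusted p of 0.0442, the one call among the 7 factors that the block changed. Unknown depth limits what can be said of genes near 1 FPKM.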
